A study of Mus musculus with 47 samples.

Results

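Synaptic vesicle and release genes were followed through 8 members, Snap25, Vamp2, Syt1, Syt4, Syt11, Rab3a, Syp and Syn1, chosen by name. Earlier results of these data were known when they were chosen. RefSeq mRNA names in the deposited tables were paired with these symbols, which gave 14 transcripts with 9 distinct 3′ UTRs, out of 28190 mRNA transcripts of 18913 symbols. Where transcripts of a gene have 1 common 3′ UTR their counts are the same, and 1 transcript per gene is given here. No other gene had a 3′ UTR that overlapped one of these.

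The study asked how transcript synthesis and decay change when P19 cells, an established mouse embryonal carcinoma line labelled wild type (WT), become neurons. It measured both by SLAM-seq, in which cells take up 4-thiouridine (4sU) into new RNA. After alkylation sequencing reports C at a 4sU position, so the T>C conversions count newly made RNA. Undifferentiated cells (D0, growth medium with serum, 20 µM 4sU) were compared with cells after 6 days in NDiff 227 medium with 500 nM retinoic acid (D6, 500 µM 4sU), so that state, medium and 4sU dose cannot be told apart in any comparison of label. In the anabolic assay uptake of 4sU was followed from 0 h, and in the catabolic assay cells were labeled for 15 h and the loss of label was followed during a chase with uridine triphosphate (UTP). One passage of the methods has 13 h for that labeling, so 15 h is here the name of the level at the start of the chase. Both assays had 4 time points, 0, 3, 6 and 9 h in the series design and the methods but 0, 1, 3 and 9 h in the sample labels, and the hours of the design are used here. There were 47 libraries in 16 groups, each of 3 except D6 at 6 h of the chase with 2.

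The series design calls the libraries of a group biological replicates, and no culture, batch or day is given for them. Reads on 3′ UTRs ranged from 3447888 to 11677046 at D0 and from 1489528 to 7930149 at D6. They carry no molecular identifiers, so errors are taken from the spread between libraries. Abundance is given in CPM, the reads of a 3′ UTR scaled to all reads on 3′ UTRs of the library. Libraries were primed at the 3′ end, so CPM was not divided by length, and it is compared only within a gene.

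Markers were read first, to describe the states. Their lists were chosen with earlier results of these data known, so they are no independent check. All 10 neuronal markers, among them Dcx, Map2 and Elavl4, were called higher at D6 without 4sU, and their summed level went from between 656 and 904 CPM over the D0 libraries to between 8443 and 11637 CPM over the D6 libraries. All 5 of the 10 pluripotency markers that could be tested, Pou5f1, Utf1, Sall4, Tdgf1 and Lin28a, were called lower. The progenitor genes Hes5 and Fabp7 were called higher, and the other 4 progenitor markers were not called. None of the 3 glial markers that could be tested was called, and Gfap, Aqp4, Olig1, Olig2, Sox10 and Pdgfra had no read at D6 without 4sU. Endocrine cells also hold release machinery, and 4 endocrine genes, Chga, Chgb, Scg3 and Pcsk2, were called higher while Ins1, Pomc and Pcsk1 had no read there. Of 9 mesoderm and endoderm markers 4 could be tested, and Acta2 (log2 difference -4.89) and Tagln (-7.57) were called lower. The summed level of that list ran from 86.9 to 205 CPM over the D0 libraries and from 0.956 to 67.6 CPM over the D6 libraries, and Gata4, Sox17, Foxa2 and Afp had no read at D6 without 4sU. The part of these lists in the values that follow was not tested. In bulk RNA, fewer cells that express a gene and less RNA per cell cannot be told apart.

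At a synapse, transmitter is packed into vesicles that dock at the presynaptic membrane and fuse with it when calcium enters. Fusion is driven by SNARE proteins that zip together from both membranes. Synaptotagmins bind the vesicle or other organelles and sense calcium or set where membranes fuse, Rab3 proteins bring vesicles to their release site, and synaptophysin and synapsin are abundant vesicle proteins by which presynaptic terminals are recognized.

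Sequence was read for the members that the reference holds, to show what could be matched in the control regions of these transcripts. The 3′ UTRs other than that of Syt4 lay, in mm10 coordinates, at chr2:136781144-136782428 (+) for Snap25, chr11:69090667-69092381 (+) for Vamp2, chr10:108497650-108500539 (-) for Syt1, chr3:88744701-88747699 (-) for Syt11, chr8:70758089-70758686 (+) for Rab3a, chrX:7651837-7653256 (+) for Syp and chrX:20860511-20861543 (-) for Syn1. Of these, 5 were searched in GENCODE vM21 transcripts (Snap25, Syt1, Syt11, Syp and Syn1). A 3′ UTR site for miR-9-5p, a neuronal microRNA, was sought as ACCAAAG, the complement of its seed, and sites for Pumilio proteins, which bind 3′ UTRs and repress them, as TGTANATA, on the transcript strand. The mature microRNA (RefSeq) is shown with its seed, bases 2 to 8, in capitals, and the sites with the matched letters in capitals, 5′ to 3′.
miR-9-5p: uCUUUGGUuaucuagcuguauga
Syt1 miR-9-5p match, chr10:108498276-108498282: caagtcctACCAAAGagaaggag
Syt11 miR-9-5p match, chr3:88746395-88746401: gggtggaaACCAAAGtttcacca
Snap25 Pumilio match, chr2:136781390-136781397: ccaaaggcTGTACATAgtggtcat
Syt1 Pumilio match, chr10:108500478-108500485: ccagtatcTGTAAATAcctcagta
Syt11 Pumilio match, chr3:88745825-88745832: ccatggaaTGTAAATAttgtatca

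Syt1 held 3 Pumilio matches and Snap25 and Syt11 1 each, whereas these letters were not found in Syp and Syn1. The miR-9-5p letters were found once in Syt1 and once in Syt11. Such matches are common. Of 3′ UTRs within 20% of the length of that of Syt1, 43.5% held a Pumilio match and 23.5% a miR-9-5p match, and near the length of that of Syt11 the shares were 44.8% and 25.2%. Near the length of Snap25, 25.5% held a Pumilio match.

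Promoters, 250 bases before to 50 after a start site, were held for Syt1 and Rab3a (2 start sites each), Syt11, Syp and Syn1 in RefSeq GRCm38.p6. The Syn1 promoter is shown because it alone of the 7 held a full cyclic AMP response element (CRE), the letters TGACGTCA, which read the same on both strands.
Syn1 CRE match, chrX:20921070-20921077 (-), 159 to 152 bases before the start site: tgacTGACGTCActca
Of 32851 mouse promoters of this length, 1.79% held these letters. The GC box GGGCGG, sought on both strands, was in 4 of the 7 promoters and in 35.7% of all, and the TATA box TATAAA in none of the 7 and in 13.6% of all. RE1, the motif of the neuronal repressor REST, was not found in the 7 windows and was in 0.0639% of all. No peak or methylation was measured, and nothing was read about any factor from these letters.

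The first comparison asked whether the members accumulated at D6, in the libraries without 4sU (3 and 3). Of the 8 genes, 5 rose (Syt4, Syt1, Rab3a, Vamp2 and Syt11), none fell, and Snap25, Syp and Syn1 were not called, by edgeR's quasi-likelihood test with Benjamini-Hochberg adjustment over all transcripts. Of 16091 transcripts tested, 13.1% were called in either direction and 7.74% higher at D6. The members' median log2 difference was 2.89, and that of all transcripts tested was -0.04.

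Snap25, the SNARE of the presynaptic membrane, had 4.73, 0 and 0 CPM in the D0 libraries without 4sU and 68.6, 43.9 and 48.4 CPM in those at D6. All D6 libraries were above all D0 libraries. How many of all transcripts were apart in this way was not counted, for Snap25 or for the members below. The log2 difference was 5.10 ± 1.57 (SE), which did not pass (edgeR adjusted p = 0.0572), and DESeq2 called it (adjusted p = 0.00145). edgeR called it too with no filter on low counts (adjusted p = 0.0169) and without replicate 55, the D0 library with 4.73 CPM (adjusted p = 0.00266). In the other 5 fits that left out 1 library it was not called. Over these 6 fits the log2 difference ran from 4.52 to 11.2, and without replicate 55 no D0 read was left. Over all time points, Snap25 was at 0 reads in 7 of 24 D0 libraries, the highest of which had 13.0 CPM, and 19 of 23 D6 libraries lay above that value. Among the D6 libraries its level went from 0 to 149.6 CPM with a median of 48.4, so that it varied widely.

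Vamp2, synaptobrevin 2, is the SNARE carried by the vesicle. It had 51.8, 7.27 and 15.001 CPM at D0 and 163, 151 and 90.6 CPM at D6. The groups did not overlap, and the log2 difference was 2.49 ± 0.65 (edgeR adjusted p = 0.0288). The call was lost in 4 of the 6 fits that left out 1 library, all 3 of the D6 libraries and 1 of the D0 libraries, with log2 differences from 2.09 to 3.58 over the 6 fits. Over all 47 libraries 20 of 23 D6 libraries lay above the highest D0 library.

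Syt1 encodes the calcium sensor of fast release. Its D0 libraries had 21.3, 18.2 and 15.7 CPM and its D6 libraries 129, 149.6 and 186 CPM. The log2 difference was 3.07 ± 0.40 (edgeR adjusted p = 0.000682). In every one of the 23 D6 libraries of both assays Syt1 was above its highest D0 level of 43.6 CPM.

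Syt4, a synaptotagmin whose first calcium-binding domain carries a substitution and which sits on vesicles that carry peptides and growth factors, had the widest difference of the 8. Its 3′ UTR lies at chr18:31437808-31440182 (-) in mm10. It had 0.279, 0.364 and 0.294 CPM at D0 against 161, 204 and 174 CPM at D6. The log2 difference was 9.09 ± 0.54 (edgeR adjusted p = 3.47e-06). That is higher than 99.1% of all transcripts tested. The D0 level rests on a few reads per library, and the size of this difference varied with the libraries compared, down to 6.08 ± 0.93 after 15 h of 4sU and 5.77 ± 0.83 at 3 h of uptake, and it was called at all 7 time points where Syt4 passed the count filter.

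Syt11, which does not sense calcium and acts in vesicle recycling and membrane traffic, had the most reads of the 8 in both states. It had 127, 129 and 150.3 CPM at D0 and 782, 520 and 683 CPM at D6. The log2 difference was 2.28 ± 0.26 (edgeR adjusted p = 0.000284). Its 23 D6 libraries, from 520 to 1503 CPM, all lay above its 24 D0 libraries, from 98.2 to 182 CPM. No other member had so small a spread, with an SD of 16.5% of the mean over the D0 libraries and 27.7% over the D6 libraries.

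Rab3a, the vesicle GTPase, had 12.3, 7.27 and 28.4 CPM at D0 and 91.2, 142 and 70.7 CPM at D6. The groups did not overlap. The log2 difference was 2.71 ± 0.61 (edgeR adjusted p = 0.0147), and 3 of the 6 fits that left out 1 library lost the call, with adjusted p-values up to 0.0947.

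Syp, synaptophysin, was low in both states without 4sU, at 0.279, 0 and 0.147 CPM at D0 and 10.3, 3.33 and 8.60 CPM at D6. The log2 difference of 5.51 ± 2.25 did not pass (edgeR adjusted p = 0.149), and DESeq2 called it (adjusted p = 0.0271). Over all 23 D6 libraries it had a median of 27.3 CPM and reached up to 142 CPM, and 2 had no read. A library without a read allows up to 2.01 CPM for Syp at 6 h of the chase and up to 0.807 CPM at 9 h of uptake, taking 3 reads as the limit, for counting error only.

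Syn1, synapsin 1, which tethers vesicles to actin, differed least. It had 19.5, 3.82 and 13.5 CPM at D0 and 17.3, 17.5 and 41.8 CPM at D6, and the groups overlapped. The log2 difference was 1.10 ± 0.99 (edgeR adjusted p = 0.582, DESeq2 adjusted p = 0.506). Over all time points its D0 libraries went from 3.02 to 19.5 CPM and its D6 libraries from 0.239 to 120.3 CPM, and 13 of 23 D6 libraries lay above all D0 libraries.

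**Figure D1:**
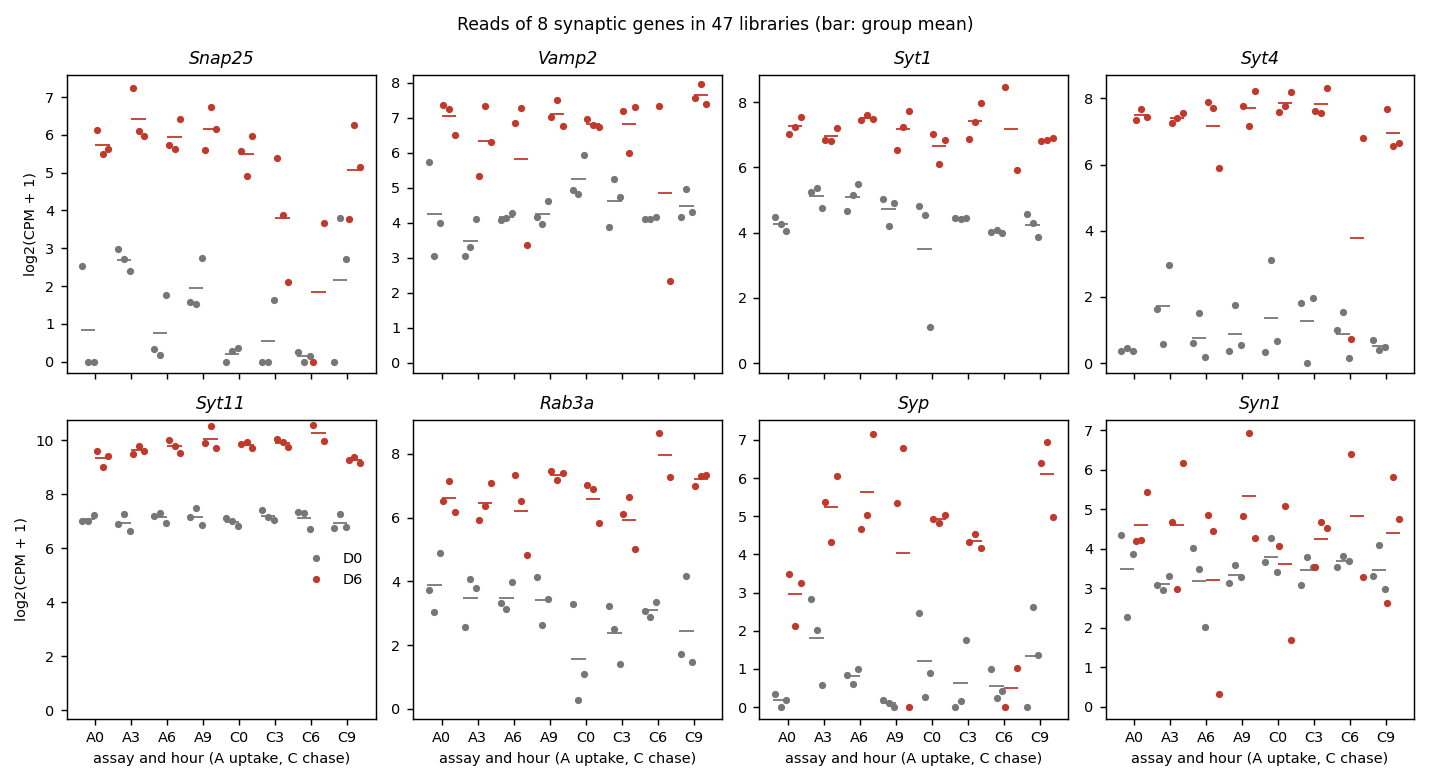
Reads of each gene as log2(CPM + 1) in the 47 libraries, by assay (A, anabolic uptake; C, catabolic chase) and hour of the series design, with a point per library and a bar at the mean of each group. Syt1 and Syt11 at D6 sit above D0 in all 23 libraries, whereas points of Syn1 overlap between the states. The share of all transcripts that are apart in this way was not counted.

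The same comparison was made at the other time points, where the libraries had been given 4sU. Of these, the 6 other than 15 h were added after seeing the data. After 15 h of 4sU, Snap25 had 46.9, 29.1 and 62.1 CPM at D6 against 0, 0.209 and 0.290 CPM at D0. Of 15655 transcripts 14.9% were called there, 7.33% higher. Snap25 was among them (log2 difference 7.77, edgeR adjusted p = 0.00180), and Syt1 (2.47, adjusted p = 0.0813) and Vamp2 (1.44, adjusted p = 0.0525) were not. Syt1 had 27.3, 22.2 and 1.16 CPM at D0 and 129, 67.5 and 113 CPM at D6, apart in every library but with 1 low D0 library. At the other time points 6 members were called at 3 h of uptake, where 17% of all transcripts were called and 8.31% were higher at D6. At 6 h of uptake 6 were called (14.7% of all, 7.92% higher), and at 9 h 6 (14.4%, 6.17% higher). In the chase 5 were called at 3 h (17.4% of all, 9.21% higher), 3 at 6 h (23.5%, 4.58% higher) and 6 at 9 h (22.3%, 12.2% higher). Every one of these calls of a member was higher at D6. At 6 h of the chase, with the lowest count, D6 has 2 libraries, the median log2 difference of all transcripts was -0.71, and Snap25, Syt4 and Syp were under the count filter.

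One of those 2 libraries, replicate 14, stood apart. It was the least deep of all, with 1489528 reads. Syt4 had 0.671 CPM in it and Snap25 and Syp had no read, while Rab3a (398 CPM), Syt1 (356 CPM) and Syt11 (1503 CPM) were at their highest level of the series. The other library of that group had 110 CPM for Syt4 and 11.7 CPM for Snap25.

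In a fit over all 47 libraries with assay and time point as a factor, chosen after the data had been seen, all 8 members were called higher at D6. In that fit 49.9% of 17762 transcripts were called in either direction and 21.6% higher. The log2 differences were 4.96 ± 0.58 for Snap25, 2.57 ± 0.27 for Vamp2, 2.77 ± 0.22 for Syt1, 7.09 ± 0.43 for Syt4, 2.71 ± 0.10 for Syt11, 3.88 ± 0.32 for Rab3a, 4.98 ± 0.67 for Syp and 1.42 ± 0.41 for Syn1. Syn1 had the highest adjusted p of the 8, 0.00284 by edgeR. Without replicate 14 all 8 were still called, and Syn1 had a log2 difference of 1.26 ± 0.41 (edgeR adjusted p = 0.00891). Syt4 was first and Syn1 last in this order and in that of the libraries without 4sU, but not at every time point. After 15 h of 4sU Snap25 (7.77) lay above Syt4 (6.08), and Syn1 lay above Syt1 at 9 h of uptake (2.57 and 2.49) and also at 3 h. Snap25 and Syp, next to each other, did not differ beyond their errors, nor did Syt1, Syt11 and Vamp2.

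**Figure D2:**
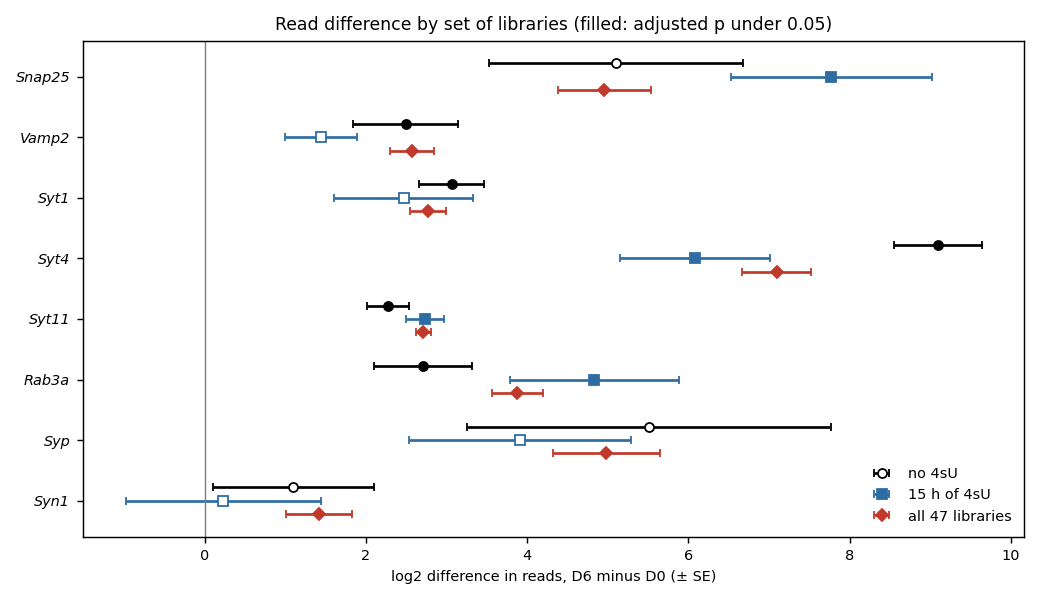
Log2 difference in reads between D6 and D0 (± SE) for each gene in the libraries without 4sU, in those after 15 h of 4sU and in all 47 libraries, with filled symbols where the edgeR adjusted p was under 0.05. Syt4 lies furthest right in the libraries without 4sU at 9.09, and Syn1 is closest to 0.

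Across the 16 group means of log2(CPM + 1), the profile of Syt4 was most like those of Nrxn3 and Lin7a (Pearson r = 0.99 for both), among 10009 genes with a mean of at least 5 CPM. Syt11 was most like Hoxa3 and St18 (r = 0.99 for both) and Rab3a like Nlgn2 and Serinc2 (r = 0.98 for both). Of the 2 genes closest to Syt1, the one given here is Fmn2 (r = 0.98). Snap25 was most like St8sia1 (r = 0.97) and Scg5 (r = 0.95), Vamp2 like Ntrk2 (r = 0.96) and Kif21b (r = 0.95), and Syp like Glra2 and Rimbp2 (r = 0.94 for both). The best matches of Syn1 were lower, Zfp318 (r = 0.89) and Cpeb2 (r = 0.86). These 16 points share the step from D0 to D6. Within a state, over 8 group means, r of the same pairs went from -0.19 to 0.93 at D0 and from 0.23 to 0.99 at D6.

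Other genes of the release machinery were taken from a list of 97, also chosen with earlier results of these data known. Of that list 95 were found and 67 could be tested without 4sU. Of these, 9 rose and 2 fell at D6, and 56 were not called (edgeR). The calls made up 13.4% higher and 2.99% lower of the 67, beside 7.74% higher and 5.4% lower among all transcripts. The median log2 difference of the 67 was 0.72.

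In the SNARE regulators 2 of 9 tested rose. One of them, Napb, a factor that recycles SNARE complexes, rose from 11.6, 9.46 and 19.3 CPM to 123, 218 and 72.2 CPM (log2 difference 3.39, edgeR adjusted p = 0.00228). In the SNARE core none of 7 rose, and Stx3, a syntaxin of epithelial and ribbon synapse membranes, fell from 42.3, 31.8 and 69.4 CPM to 0.219, 0 and 0.287 CPM (-7.84, adjusted p = 0.00166). The synaptotagmins and other calcium sensors beyond the members gave no call among 5 tested, and Syt7 had a log2 difference of 0.16 (edgeR adjusted p = 0.848).

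Among the Rab3 cycle, Rab3c, a vesicle GTPase close to Rab3a, rose from 0.696, 0 and 0.147 CPM to 219, 247 and 213 CPM (log2 difference 9.48, edgeR adjusted p = 1.59e-05), the only call of 9. Of the vesicle membrane proteins, Sv2a, a glycoprotein of synaptic vesicles, rose from 20.6, 50.4 and 14.9 CPM to 127, 154 and 81.8 CPM (2.01, adjusted p = 0.045). Syngr1, a relative of synaptophysin, fell from 29.8, 183 and 66.5 CPM to 0.438, 6.11 and 5.16 CPM (-4.64, adjusted p = 0.014).

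The active zone, the release site itself, had the most calls, 4 of 14 tested, all higher. Cacna1b, the pore of the N-type calcium channel, rose from 0.279, 0.364 and 0.147 CPM to 112, 120 and 89.0 CPM (log2 difference 8.57, edgeR adjusted p = 3.63e-05). Bsn, the scaffold bassoon, rose to 26.1, 28.04 and 60.8 CPM (7.77, adjusted p = 0.00444). Unc13a, which primes vesicles, and Cacnb4, a calcium channel subunit, had no read at D0 without 4sU. Against 3 reads over the D0 group as the limit, Unc13a was at least 148-fold higher (edgeR adjusted p = 0.0137). Cacnb4 was at least 98.8-fold higher (edgeR adjusted p = 0.0314). These bounds allow for counting error at D0 only, not for the spread between libraries. In vesicle recycling Ap3b2, a neuronal adaptor subunit, rose from 10.9, 8.001 and 0.588 CPM to 98.8, 44.4 and 82.5 CPM (3.49, adjusted p = 0.0356), 1 of 10. Transmitter loading gave no call among 5, and the vesicular GABA transporter Slc32a1 had a log2 difference of 4.21 (edgeR adjusted p = 0.137).

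**Figure D3:**
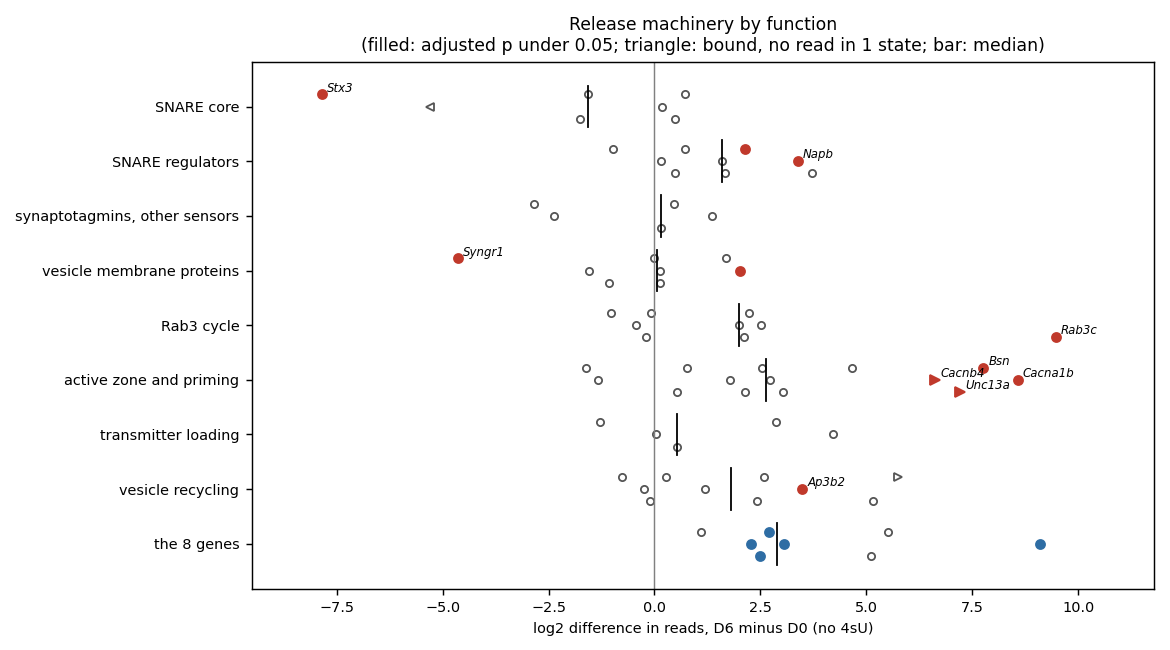
Log2 difference in reads between D6 and D0 without 4sU for the release machinery by function, with a point per gene, filled where the edgeR adjusted p was under 0.05 and named, outside the 8 genes, where the called difference was over 3 in size, and a bar at the median of each list. Triangles stand at a bound for genes with no read in 1 state, taking 3 reads over the group as the limit, for counting error in that state only. The active zone has 4 filled symbols, of which Bsn lies at 7.77 and Unc13a and Cacnb4 are bounds, and the 8 genes have a median of 2.89.

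Whether the 4sU treatment itself moved the members' reads was tested within each state, 15 h of 4sU against none. The 15 h libraries were all of the catabolic assay and those without 4sU all of the anabolic assay. So 4sU and assay cannot be told apart here. At D0, 0% of 15494 transcripts were called (edgeR, 319 at an unadjusted p under 0.05; DESeq2 called 3), and none of the 5 members that passed the count filter. Snap25, Syt4 and Syp were under it. At D6, 0.0512% of 15615 were called and no member, by edgeR or DESeq2. The lowest unadjusted p there was that of Syt11, whose level was higher by a log2 of 0.40 ± 0.18 (edgeR adjusted p = 0.81), with 923, 982 and 832 CPM after 15 h. The test of the difference between the states called 0% of 17569 transcripts (edgeR, 846 at an unadjusted p under 0.05; DESeq2 called 96) and none of the members. For Syt4 that difference was -2.98 ± 1.07 (edgeR adjusted p = 1.00).

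Label was read as the share of covered T positions converted to C. Over all 3′ UTRs the mean rate after 15 h of 4sU was 1.42% at D0 and 4.63% at D6, against 0.171% and 0.166% without 4sU. The depth behind it differed widely among the members. Syt11 had between 7802 and 207183 covered T positions per library, and Syp and Snap25 at D0 had at most 2519 in any library and 0 in several. Rates of Snap25, Syp and Syn1, and of Syt4 at D0, moved between 0 and several percent from library to library of a group and are not read further. Such scatter was also found at D6 in well-covered libraries. After 9 h of uptake there, Snap25 had 0.0242% of 4136 covered T positions in 1 library and 2.46% of 5243 in another.

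Vamp2 had conversions without any 4sU. They came to 0.669% of covered T positions at D6 and 0.605% at D0, pooled over 3 libraries, against 0.0531% and 0.0348% for Syt11. In these Vamp2 reads, 225 conversions at D6 lay in 225 reads and 60 at D0 in 60 reads, 1 per read. The 60 at D0 all came from replicate 55 (0.912% of 6578 covered T positions), and the other D0 libraries had 0 of 1120 and 0 of 2217, so the D0 value rests on that library and is 0 without it. At D6 each of the 3 libraries had some, with rates of 0.294%, 1.24% and 0.656%. Values of Vamp2 label are given with this background in them.

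The second comparison asked whether the members were labeled to a different extent after 15 h, relative to all 3′ UTRs of the same library. None of the 8 was called, and of 14334 transcripts 0% were (edgeR, 990 at an unadjusted p under 0.05; DESeq2 called 232 and no member). Syt11 rates were 6.10%, 5.31% and 4.64% at D6 and 2.33%, 1.81% and 3.22% at D0. All D6 libraries were above all D0 libraries, and so was the rate of all 3′ UTRs with the higher dose. Relative to that rate the log2 difference was -0.59 ± 0.24 (unadjusted p = 0.0329 and adjusted p = 0.667 by edgeR).

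Syt1 rates after 15 h were 5.27%, 10.2% and 4.59% at D6 and 3.69%, 0.0556% and 0% at D0, the last from 92 covered T positions. For Vamp2 they were 5.90%, 4.89% and 6.68% at D6 and 3.51%, 0.0813% and 4.76% at D0, and for Rab3a 4.95%, 1.29% and 4.83% at D6 and 0.259%, 0% and 3.19% at D0, the last 2 from 27 and 94 covered T positions. These rates scatter widely, at D6 too for Rab3a and Syt1, and the log2 difference had an SE of 1.10 for Syt1, 1.00 for Vamp2 and 1.39 for Rab3a. Syt4 at D6 had rates of 5.74%, 5.33% and 4.45%, close to each other, but its D0 rates rest on 18 to 1049 covered T positions.

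The third comparison asked whether uptake differed, as the label after 9 h over that after 15 h. None of the members was called, nor was any of 14423 transcripts (0% called by edgeR, 1036 at an unadjusted p under 0.05; DESeq2 called 161 and no member). Syt11 had taken up 5.09%, 4.37% and 3.72% after 9 h at D6 and 1.04%, 1.72% and 1.91% at D0. As a share of the 15 h rate of the same state this was 82.1% ± 12.8 (SD, n = 3) at D6 and 63.5% ± 18.6 (SD, n = 3) at D0, and the shares overlapped. The log2 difference of the 2 shares was 0.37 ± 0.36 (edgeR adjusted p = 1.00). For all 3′ UTRs together the share was 77.8% at D6 and 87.5% at D0.

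The fourth comparison asked whether the members lost label at a different pace in the chase. None was called, among 14426 transcripts of which 0.0139% were (edgeR, 882 at an unadjusted p under 0.05; DESeq2 called 140 and no member). Syt11 fell from the rates given above at 0 h to 0.445%, 0.420% and 0.521% after 9 h at D6 and to 0.0730%, 0.128% and 0.133% at D0. In the middle of the chase it had 5.82%, 6.18% and 4.02% at 3 h and 2.61% and 2.36% at 6 h at D6, so that most of the loss came after 3 h. The difference in slope was 0.07 ± 0.10 log2 units per hour (edgeR adjusted p = 0.994), and the interval of 2 SE on each side spans 0.

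After 9 h of chase, 8.63% ± 0.98 (SD, n = 3) of the 15 h label was left in Syt11 at D6 and 4.54% ± 1.36 (SD, n = 3) at D0. The lowest D6 value, 7.85%, lay above the highest D0 value, 5.43%, though the test of the slope did not pass. These shares divide by the mean of the libraries at 0 h, so their SD leaves out the spread of that level. With each library at 0 h as the denominator, chosen after the data were seen, they ran from 6.88% to 11.2% at D6 and from 2.27% to 7.35% at D0, and overlapped. With the rate without 4sU subtracted as well they ran from 5.88% to 9.96% and from 1.13% to 5.40%, and did not. Over all 3′ UTRs the share left went the other way, 19.1% at D6 and 29.2% at D0. The rate without 4sU made up 41.1% of the rate of all 3′ UTRs after 9 h of chase at D0 and 18.8% at D6. With that background subtracted, an alternative chosen after the data were seen, the shares of all 3′ UTRs were 16.1% ± 1.4 (SD, n = 3) at D6 and 19.5% ± 1.3 (SD, n = 3) at D0, closer together. Those of Syt11 were then 7.51% ± 0.99 (SD, n = 3) and 3.07% ± 1.38 (SD, n = 3), from 6.71% to 8.62% at D6 and from 1.48% to 3.97% at D0. In both states Syt11 kept less label than all 3′ UTRs together in every library. The lowest share of all 3′ UTRs was 17.7% at D6 and 28.2% at D0 (14.6% and 18.3% with the background subtracted). That pool weights each 3′ UTR by its covered T positions, and Syt11 was not ranked among single transcripts by this share.

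Syt1 kept 15.2% ± 4.5 (SD, n = 3) of its label at D6, Vamp2 18.4% ± 15.3 (SD, n = 3), Rab3a 37.9% ± 25.8 (SD, n = 3) and Syt4 13.5% ± 11.6 (SD, n = 3). With the background subtracted Vamp2 kept 6.78% ± 17.5 (SD, n = 3), with libraries from -12.3% to 22.1%, and the other 3 genes moved by less than their SD. Syt4 rates at D6 were 6.06%, 4.53% and 4.89% after 3 h of chase and 1.13%, 0.955% and 0.0105% after 9 h. Rab3a had 4.61%, 3.98% and 4.58% after 3 h and 0.822%, 0.876% and 2.50% after 9 h. For each of these 4 genes all D6 libraries at 9 h lay below all those at 3 h. The 2 libraries at 6 h did not keep to that order. Rates there were 1.79% and 3.32% for Syt1, 0% and 3% for Vamp2, 0.0061% and 2.13% for Rab3a, and 4.40% and 5.56% for Syt4. The lower ones of Vamp2 and Rab3a lay below all their libraries at 9 h. The higher ones of Vamp2 and Syt4 rest on 100 and 18 covered T positions. The shares left overlapped between Syt1, Vamp2 and Syt4. Those of Rab3a ran from 22.3% to 67.7%. They rest on a level at 0 h in which replicate 8 was low (1.29%), and without it they ran from 16.8% to 51.1% with a mean of 28.6%, overlapping with those of the other 3 genes.

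**Figure D4:**
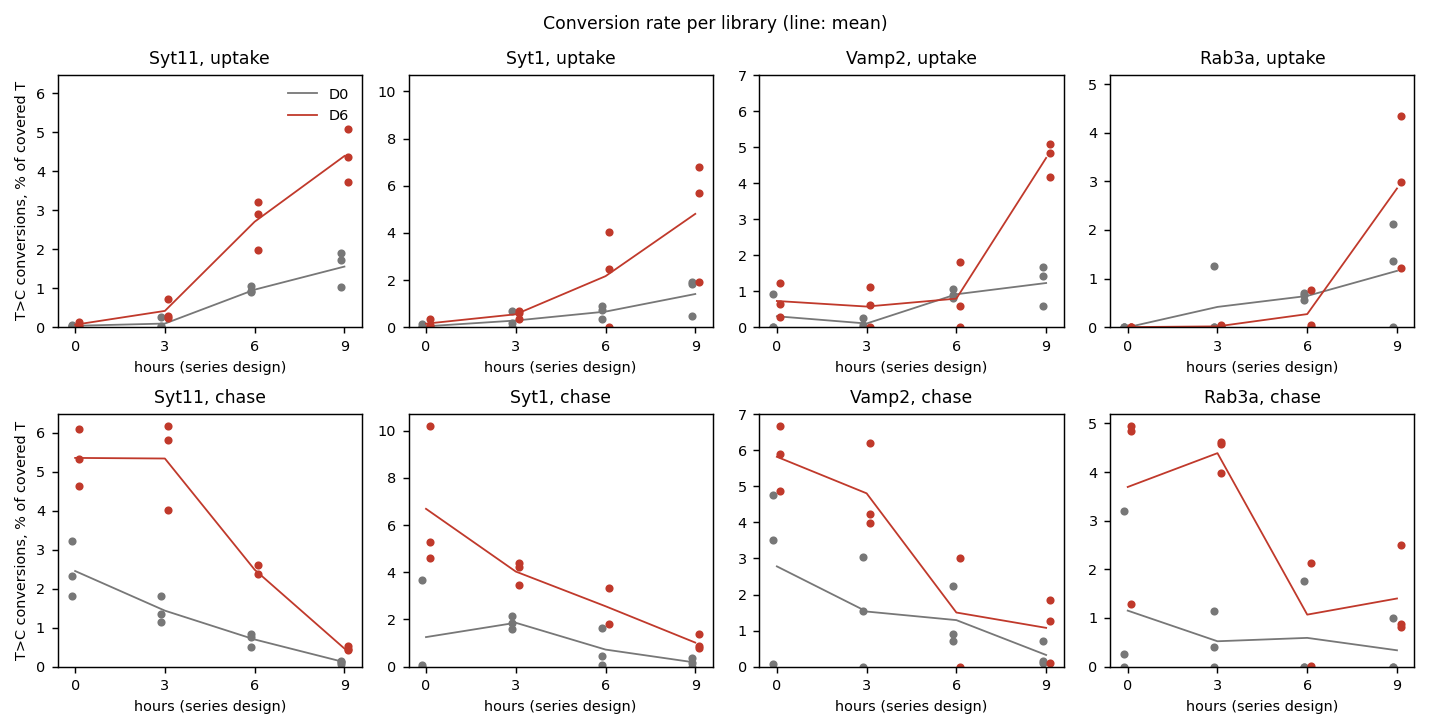
Conversion rate in percent of covered T positions against hours of the series design for Syt11, Syt1, Vamp2 and Rab3a, with a point per library and a line through the means of D0 and D6, uptake above and chase below. The Syt11 points of a group lie close together, from 4.64% to 6.10% at the start of the chase at D6, while those of the other genes scatter widely at D0.

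Half-lives were fitted as 1 exponential to all libraries of a state and assay, and kept where R squared exceeded 0.6. Syt11 had a decay half-life of 191 ± 30.1 min (SE) at D0 and 324 ± 85.0 min at D6. Transcripts with a fit had medians of 281 min at D0 (2257 transcripts) and 221 min at D6 (2445). Of these, 17.3% at D0 and 85.2% at D6 had a shorter half-life than Syt11. Both Syt11 values describe the 4-point curve only. A half-life of 191 min would leave more label after 9 h than the 4.54% measured at D0. One of 324 min would leave more than the 8.63% measured at D6. The difference of 2 such values was not tested apart from the slope, and with 0 and 9 h only the half-lives were 121 ± 91.5 min and 153 ± 36.2 min. With the hours of the sample labels they were 90.2 ± 16.5 min and 196 ± 42.3 min.

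At D6, Syt1 had a decay half-life of 232 ± 53.99 min and Vamp2 one of 270 ± 63.2 min, and neither had one at D0. With the hours of the sample labels these were 116 ± 37.6 min and 142 ± 40.7 min. Leaving out library 8 at 0 h moved that of Syt1 to 334 min. The other members had no decay half-life in either state. Synthesis half-lives, from the rise of label towards its 15 h level, could be fitted for Syt11 alone, at 494 ± 78.4 min at D0 and 347 ± 57.98 min at D6. They were 337 ± 44.6 min and 211 ± 25.6 min with the hours of the labels, and 371 ± 69.03 min and 218 ± 33.5 min with 0 and 9 h only. Transcripts with a fit had medians of 417 min and 376 min. The curve of label in all 3′ UTRs was flat between the first points, at 1.42% and 1.41% at D0 and 4.63% and 4.67% at D6, and a single exponential with these hours has no such delay.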

How the data were processed

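SLAM-seq of P19 cells (QuantSeq 3′ libraries, single-end reads) was processed by the authors with SLAMdunk 0.3.3 on mm10, with masking of polymorphisms. The authors deposited, per 3′ UTR interval, counts of reads, covered T positions, T>C conversions and converted reads, which were used. The deposited conversion fraction and CPM were not used. Intervals of the same RefSeq mRNA were added up. Groups came from the labels, hours and doses from the design and methods.

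Reads were tested with edgeR 4.0.16 in R 4.3.3 (quasi-likelihood, TMM, filterByExpr, Benjamini-Hochberg at 0.05), and conversions by the same test with the log of covered T positions as offset and a mean of at least 1000 covered positions. DESeq2 1.42.0 was an alternative. Half-lives were least-squares fits with R squared over 0.6 and up to 5000 min, as in the methods. Members and lists were chosen with earlier results of these data known. Named were all members, in each function list up to 2 called genes with the highest and 2 with the lowest difference, called markers, and the 2 genes most like each member (a pseudocount of 1 CPM on the log2 scale). Of the genes this rule selects, 2 are not reported here.

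Tested on simulated data at this depth with 200 changed transcripts, the read test of D6 against D0 recovered 21.5% at a log2 of 2. At a log2 of 4 it recovered 57.5%. The read test of 15 h of 4sU against none at D6 recovered 34% at a log2 of 2. The test of label after 15 h recovered 9.5% at a log2 of 2, that of uptake 0% at a log2 of 2, and that of the decay slope 5.5% at 0.4 per hour.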

Additional observations from a re-analysis of the deposited data

How the results depend on the processing

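No called value of a member changed its direction in any alternative that was run, and no member was called in a test of label, decay or response to 4sU in any of them. For reads, the count of 5 members called became 7 with DESeq2, 6 with no filter on low counts, 4 after 15 h of 4sU, and, in libraries chosen after the data were seen, 6 at 3, 6 and 9 h of uptake and at 9 h of the chase, 5 at 3 h and 3 at 6 h of the chase, and 8 in all 47 libraries, with or without replicate 14. Leaving out 1 library each gave 3 to 5, with 3 without replicate 37 or 38 of D6, when Vamp2 and Rab3a were lost; the cause was not tested. Members with a decay half-life were 1 at D0 (6 with no minimum of R squared, 1 to 2 with 1 library left out) and 3 at D6 (7 with no minimum, 3 to 4). Members with a synthesis half-life were 1 at D0 (2 with the hours of the labels, 7 with no minimum, 1 to 2) and 1 at D6 (4 with the hours of the labels, 4 with 0 and 9 h only, 8 with no minimum, 1 to 2).

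Over all transcripts, 2115 were called in reads, 3209 with DESeq2, 1253 with 1 transcript per cluster, 1253 to 2307 with 1 library left out, 3938 at 6 h and 3633 at 9 h of the chase, 8872 in all libraries and 9210 without replicate 14. At 15 h of 4sU at D6, 8 were called, 264 with DESeq2, 82 with no filter, 1 with 1 transcript per cluster and 0 to 3 with 1 library left out. For the response to 4sU, 0 became 96 with DESeq2 and 38 with no filter. For label after 15 h, 0 became 232 with DESeq2 and 9 at a minimum of 10000 covered positions. For uptake, 0 became 161 with DESeq2 and up to 52 with 1 library left out. For the slope, 2 became 140 with DESeq2, 108 with the hours of the labels and 34 with 0 and 9 h only. No paired analysis was possible because the labels number libraries without sharing numbers between groups. Snap25 and Syp at D0 had at most 2519 covered T positions in a library, and rates of Snap25 at D6 also scattered at higher depth; the cause was not tested.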
